A study of Mus musculus with 43 samples.

Results

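Laminins are the large cross-shaped glycoproteins on which epithelial, muscle and endothelial basement membranes are built. Each is a trimer of 1 α, 1 β and 1 γ chain, and each chain has its own gene, so the chains that a cell transcribes limit which trimers it can secrete. In the gut, the epithelial trimer that holds the Lama3 and Lamb3 products anchors cells to their basement membrane through the integrin of Itga6 and Itgb4, whereas trimers holding the Lama1, Lama2, Lama4 or Lama5 products with the Lamb1 or Lamb2 and Lamc1 products are laid down by epithelium, mesenchyme, muscle and vessels in differing mixtures. The 8 laminin genes described here, Lama1, Lama3, Lama4, Lama5, Lamb1, Lamb2, Lamb3 and Lamc1, were chosen by name from the 52636 genes in the expression tables, and comprise 4 α chains, 3 β chains and 1 γ chain. Lama2, a further α chain gene in the tables, is given where the α chains would otherwise be incomplete.

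The expression data came from bulk RNA sequencing of 24 mouse colon organoid libraries and 19 mouse colon fibroblast libraries. Organoids were started from crypts of adult Vil-cre/ERT2 mice carrying Apc wt/wt (colonoids, lines M41, M40 and M1) or Apc flox/flox (tumoroids, lines F11, M3 and M14); both genotypes carried the Cre, which the villin promoter drives in gut epithelium, and all mice were injected with tamoxifen. Each line came from 1 mouse and was grown in Matrigel, a basement membrane extract that is itself rich in laminin protein, with Wnt3a-conditioned medium for 6 days with vehicle (DMSO), regorafenib at 4 or 8 µM, or 5-FU at 1 µM. The colonoid lines and 2 of the 3 tumoroid lines are listed as male and F11 as female, all from mice 2 months old. Fibroblasts were grown from digested colon of wild-type C57B/6 mice (lines M3, M3(2), M1(2) and M11). Over 7 days all 4 lines received vehicle, regorafenib at 4 µM, autogramin-2 at 1 µM or the 2 drugs combined, and lines M3, M3(2) and M1(2) also regorafenib at 10 µM. Regorafenib inhibits several kinases, 5-FU (5-fluorouracil) blocks the making of thymidine, and autogramin-2 blocks Gramd1a, a cholesterol transfer protein used in autophagy.

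Levels are in CP20M, read counts of a gene scaled so that each library sums to 20000000, and per kilobase (kb) of exon where chains are compared with each other. Reads per library ranged from 4371812 to 22370208 in organoids, apart from the 4 µM library of colonoid line M41 with 512599, in which 1 read equals 39.0 CP20M, and from 7949963 to 12825919 in fibroblasts. Lama3, Lama5, Lamb1, Lamb2, Lamb3 and Lamc1 had reads in all 24 organoid libraries. Organoids had all 8 epithelial markers of a marker list at a group mean of 200 CP20M or more. Of these, Cdx2 was at 1541 to 2365 CP20M in vehicle colonoids and 329 to 664 at 4 µM regorafenib. Lgals4 was at 28355 to 41470 and 1600 to 11897 CP20M there. Both were also lower in tumoroids at 4 µM, and the other markers overlapped with vehicle in colonoids at 4 µM. At 8 µM in colonoids, Cdx2 (330 to 632 CP20M) and Lgals4 (5697 to 14667) were again below vehicle. Epcam was as well there, at 10802 to 11526 CP20M against 13945 to 17835 in vehicle. In tumoroids at 8 µM, Cdx2 was lower (290 to 999 CP20M against 1221 to 3080), while Epcam and Lgals4 overlapped with vehicle. None of 8 fibroblast markers reached that mean in organoids. Their summed level was 12 to 123 CP20M, against 110998 to 186156 CP20M in fibroblast cultures. Fibroblast cultures also held endothelial, smooth muscle and glial markers, which are given beside the results they touch.

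The genes are scattered over the genome (GRCm38, GENCODE M21 models). Lama1 lies at chr17:67697259-67822647 (+), Lama4 at chr10:38965515-39110188 (+), Lama5 at chr2:180176373-180225859 (−), Lamb1 at chr12:31265234-31329644 (+), Lamb2 at chr9:108479736-108490530 (+), Lamb3 at chr1:193207699-193343878 (+) and Lamc1 at chr1:153218922-153332786 (−). Lamb3 overlaps Hsd11b1 and G0s2 on the opposite strand, Lama3 overlaps the antisense genes Gm29199 and Gm29200, and Lamc1 overlaps the pseudogene Gm8818. Whether the counting used strand is not given in the sources used here, so reads of these genes and of their antisense partners may not be separated.

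The sequences just upstream of Lamb1 and Lamb3 are shown because these 2 β chain genes rose with regorafenib in organoids, as described below. Both are from RefSeq (GRCm38.p6, plus strand), cover chr12:31265043-31265233 for Lamb1 and chr1:193301744-193301992 for the upstream one of 2 Lamb3 starts, and hold only bases that no annotated exon covers, the Lamb3 stretch lying within the span of its gene model. Capitals mark matches, on either strand, to 4 searched motifs, TGANTCA (AP-1), GGAATG (TEAD), CAGGTG (Zeb and Snai factors) and GGGCGG (Sp and Klf factors).
Lamb1: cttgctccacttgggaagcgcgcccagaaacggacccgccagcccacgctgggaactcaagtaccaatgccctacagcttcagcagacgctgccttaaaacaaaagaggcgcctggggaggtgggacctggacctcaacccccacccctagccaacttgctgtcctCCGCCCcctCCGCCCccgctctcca
Lamb3: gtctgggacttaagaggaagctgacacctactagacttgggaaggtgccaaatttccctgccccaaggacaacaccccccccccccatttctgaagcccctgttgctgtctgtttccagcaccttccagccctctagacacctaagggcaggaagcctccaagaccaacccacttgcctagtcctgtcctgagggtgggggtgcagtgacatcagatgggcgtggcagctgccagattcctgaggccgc
The Lamb1 stretch held 2 matches, both to GGGCGG, and the Lamb3 stretch held none. Of the 8 chains, 4 (Lama5, Lamb1, Lamb2 and Lamb3) had a promoter window of 300 bases in the RefSeq table, from 250 bases before to 50 after a start. In these windows GGGCGG matched 4 times in Lama5 and 2 times in Lamb1, CAGGTG matched 2 times in Lama5 and 2 times at the second Lamb3 start, GGAATG matched 1 time at the second Lamb3 start, and TGANTCA had no match. Lamb2 matched none of the 4. Of all 32851 windows, 35.7% held GGGCGG, 20.2% CAGGTG, 14.7% GGAATG and 7.81% TGANTCA. The motifs do not contain one another, and a match describes letters, not a bound site.

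In vehicle, organoids of both genotypes had Lamb3 and Lama5 at the highest mean levels among the 8 chains. In colonoids the mean level per kb was 901 ± 122 CP20M for Lamb3, 810.3 ± 248 for Lama5, 297 ± 112 for Lama3, 203 ± 45.9 for Lamc1, 111 ± 28.4 for Lamb2 and 8.03 ± 4.39 for Lamb1 (SD, n = 3). Tumoroids had 1479 ± 191 CP20M per kb for Lama5, 654 ± 219 for Lamb3, 264 ± 20.6 for Lamc1, 159 ± 71.8 for Lamb2, 94.1 ± 45.7 for Lama3 and 2.82 ± 1.60 for Lamb1. The ranges per kb of Lamb3 and Lama5 in colonoids overlapped, so the order of these neighbours was not settled. Lama1 was at 0 to 16 CP20M and Lama4 at 0 to 10 CP20M in vehicle libraries. Lama2, the remaining α chain, was at 0 to 13 CP20M, so that Lama3 and Lama5 made up nearly all of the α chain level.

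Fibroblast cultures transcribed another set of chains. Per kb, their vehicle libraries averaged 1262.5 ± 131 CP20M for Lamb1, 1098 ± 52.8 for Lamc1, 832 ± 146 for Lamb2, 263 ± 80.6 for Lama5, 178 ± 116 for Lama4, 72.4 ± 47.0 for Lama2, 17.3 ± 3.61 for Lama1, 2.35 ± 0.813 for Lama3 and 0.83 ± 0.36 for Lamb3 (SD, n = 4). Organoid and fibroblast libraries were fitted separately, so these levels are set side by side without a test. Lamb3 had at most 10 reads in any fibroblast library and Lama3 at most 35. Of the summed β chain level per kb, Lamb1 held 60.3% ± 6.08 in vehicle fibroblasts and 0.799% ± 0.446 in vehicle colonoids (SD).

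**Figure D1:**
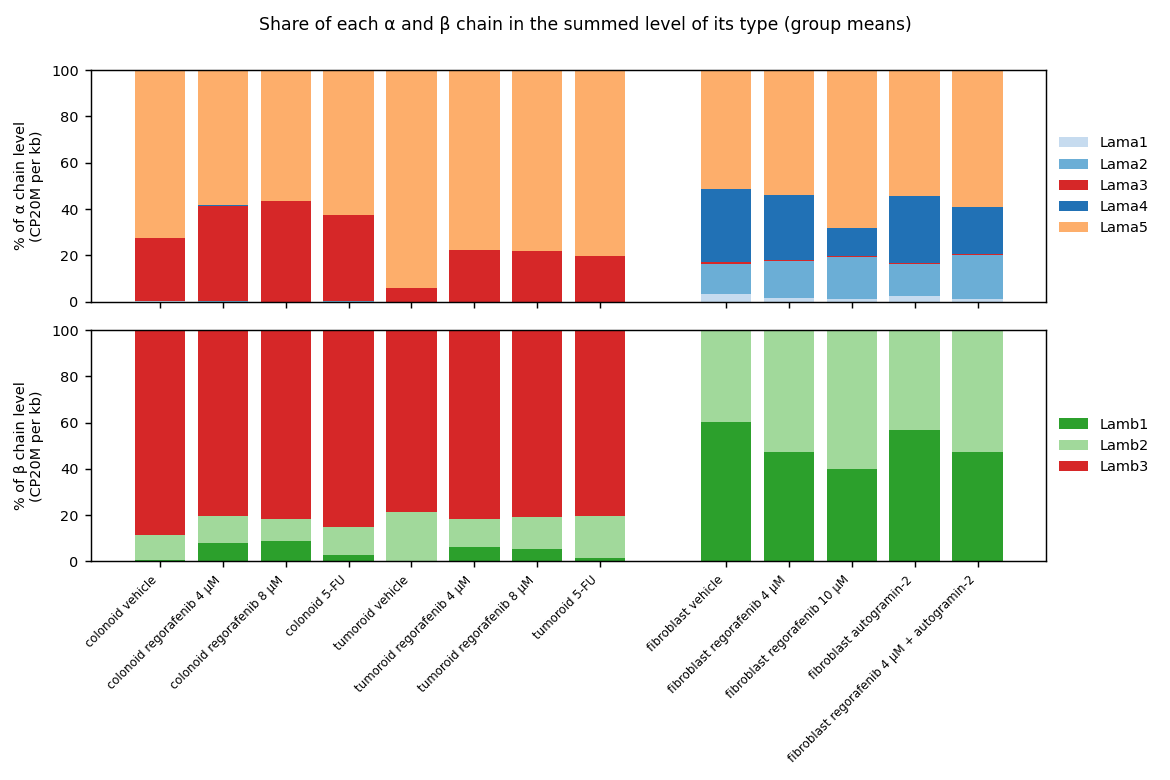
Share of each laminin chain (stacked bars, percent, y axis from 0 to 100) in the summed CP20M per kb of its type (α or β; 1 panel each) for each treatment group (x axis), as means over 3 or 4 lines. Organoid bars are mostly Lama5 and Lama3 in the α panel and Lamb3 in the β panel, fibroblast bars mostly Lama5, Lama4 and Lama2 in the α panel and Lamb1 and Lamb2 in the β panel; Lamb1 is 0.799% of the β level in vehicle colonoids and 8.19% at 4 µM regorafenib.

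Tumoroids and colonoids in vehicle were compared to see whether Apc loss alone went with other chains. Lama3, the α chain of the epithelial trimer, had the furthest separated values, with 2592, 4571 and 2406 CP20M in colonoid lines M41, M40 and M1 and 595, 886 and 1552 CP20M in tumoroid lines F11, M3 and M14. All 3 tumoroid values were lower, but the difference (log2 fold change -1.68 ± 0.44 (SE), adjusted p = 0.0739, limma) did not pass the threshold. Lama5 was at 6735, 8659 and 12290 CP20M in colonoids and 14328, 18120 and 18071 in tumoroids, likewise without overlap and short of the threshold (0.90 ± 0.32, adjusted p = 0.181, limma). The study's limits here, an FDR of 0.01 and a change of at least 2-fold, were met by 0.141% of the 11320 genes tested; 0 of the 6 tested laminin chains passed, with 2 at an unadjusted p under 0.05, and 0 passed in edgeR. The genotypes were represented by 3 lines each, each line of 1 genotype only, so differences between mice and between genotypes cannot be told apart except through the spread among lines.
Lama3 made up 27.3% ± 9.44 of the α chain level per kb in colonoids and 5.83% ± 2.21 in tumoroids in vehicle, Lama5 nearly all the rest. Lamb3 was at 2827 to 6765 CP20M and Lamc1 at 1305 to 2364 CP20M over the 6 vehicle libraries, and for both chains the genotypes overlapped. In bulk libraries, more cells of one type and more RNA per cell cannot be told apart, here and in every result that follows.

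Regorafenib raised 3 laminin chains in organoids, over both genotypes and doses: Lamb1, Lama3 and Lamb3. The threshold for the drug, an FDR of 0.001 with a change of at least 1.5-fold, was passed by 4.97% of 11320 genes, 2.82% upward; 3 of the 6 tested chains passed it, all upward, and the median log2 fold change was 1.03 over these 6 and -0.10 over all genes. Lama1 and Lama4 were under the filter of 200 CP20M in 2 libraries and were not tested.

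Lamb1, a β chain of trimers laid down by epithelium, mesenchyme, muscle and vessels, had the largest log2 fold change of the 6. In vehicle it was at 98, 111 and 30 CP20M in colonoid lines M41, M40 and M1 and at 10, 34 and 40 CP20M in tumoroid lines F11, M3 and M14. At 4 µM regorafenib it was at 1873, 2018 and 1509 CP20M in these colonoids and 1101, 718 and 2278 in these tumoroids. At 8 µM it was at 3717, 3061 and 691 CP20M in colonoids and 554, 549 and 1469 in tumoroids. Every one of the 12 treated libraries lay above every one of the 6 vehicle libraries. The log2 fold change was 4.401 ± 0.37 (SE, 95% interval 3.62 to 5.18, adjusted p = 3.94e-06, limma), or 21.1-fold on the log2(CP20M + 20) scale, which understates changes from low levels; with a pseudocount of 2 it was 4.96 and with 100 it was 3.29. The 4 µM value of line M41 rested on 48 reads, and without that library the log2 fold change was 4.39.
Even so, Lamb1 stayed a small part of the β chain level in organoids. Its share per kb went from 0.799% ± 0.446 in vehicle to 8.19% ± 1.70 at 4 µM and 9.02% ± 4.78 at 8 µM in colonoids. In tumoroids it went from 0.330% ± 0.156 to 6.10% ± 2.95 and 5.43% ± 2.504. Lamb3 held 73.1% to 86.0% of it in colonoids and 79.5% to 83.5% in tumoroids at 4 µM.

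Lama3 and Lamb3, which belong to the epithelial trimer, rose by smaller factors from higher levels. Lama3 went from 2406 to 4571 CP20M in vehicle colonoids to 4370, 10999 and 9562 at 4 µM and 17250, 17265 and 6826 at 8 µM in lines M41, M40 and M1. In tumoroid lines F11, M3 and M14 it went from 595, 886 and 1552 CP20M to 5281, 5532 and 7177 at 4 µM and 3328, 5422 and 6169 at 8 µM. It was above vehicle at both doses in 6 of 6 lines; tumoroids did not overlap with their vehicle, while in colonoids the M41 library at 4 µM (112 reads) was below the M40 vehicle library. The log2 fold change was 2.09 ± 0.27 (SE, 4.25-fold, adjusted p = 7.48e-05, limma).
Lamb3 was at 5150, 6765 and 5949 CP20M in vehicle colonoids, at 9169, 14403 and 12598 at 4 µM and at 16167, 14898 and 10802 at 8 µM. In tumoroids it was at 2827, 4428 and 5722 CP20M in vehicle, 11501, 10861 and 12870 at 4 µM and 6144, 9196 and 9492 at 8 µM. Treated and vehicle values did not overlap within either genotype, and the log2 fold change was 1.17 ± 0.16 (SE, 2.25-fold, adjusted p = 0.000109, limma). Without tumoroid line M3 the call of Lama3 was lost (adjusted p = 0.00179), and Lamb3 lost its call without colonoid lines M40 (adjusted p = 0.00135) or M1 (0.00114) or tumoroid line M3 (0.00195), at log2 fold changes of 2.06 and 1.17 to 1.20.

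Lamc1, Lamb2 and Lama5 did not pass. Lamc1, the γ chain of most laminin trimers, was at 1305 to 2364 CP20M in vehicle and 2051 to 6650 CP20M with regorafenib, above vehicle at both doses in 6 of 6 lines (log2 fold change 0.89 ± 0.18, adjusted p = 0.00249, limma, against a limit of 0.001). Lamb2 was at 477 to 1471 CP20M in vehicle and 911 to 1951 CP20M with regorafenib (0.85 ± 0.19, adjusted p = 0.00423, limma), lower than vehicle only in tumoroid line F11 at 8 µM. Lama5, the main α chain of gut epithelium, was at 6735 to 18120 CP20M in vehicle and 7882 to 24403 CP20M with regorafenib (0.47 ± 0.19, adjusted p = 0.0872, limma). Among the tested members of the list, 1 of 2 α chains (Lama3), 2 of 3 β chains (Lamb1 and Lamb3) and 0 of 1 γ chain passed. These counts are too small to compare the chain types, the list holds only 1 γ chain, and a difference between types was not tested.
Lama4, a chain of vessel and mesenchymal basement membranes, was at 0 to 10 CP20M in vehicle organoids. With regorafenib it was at 79, 67 and 35 CP20M at 4 µM in colonoid lines M41, M40 and M1, at 5, 7 and 199 CP20M at 4 µM in tumoroid lines F11, M3 and M14, and at 0 to 83 CP20M at 8 µM. The M41 value is 2 reads, and 1 tumoroid line, M14, held the highest values at both doses. Lama1 was at 0 to 3 CP20M in all regorafenib libraries. The 5 endothelial markers summed to at most 79 CP20M and the fibroblast markers to at most 118 CP20M in regorafenib organoids, against at most 44 and 123 CP20M in vehicle organoids. Both regorafenib maxima were in colonoids at 4 µM, the group of the shallow M41 library, in which 1 read equals 39.0 CP20M. In the other regorafenib groups the sums were at most 9 and 88 CP20M. The 5 immune markers summed to 419 to 573 CP20M in vehicle, 541 to 906 at 4 µM and 596 to 3245 at 8 µM, with 1 or 2 of them averaging 200 CP20M or more in each group and at least 1 of Ptprc, Adgre1 and Tyrobp at 0 throughout each group; their part in the changes of the chains was not tested.

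**Figure D2:**
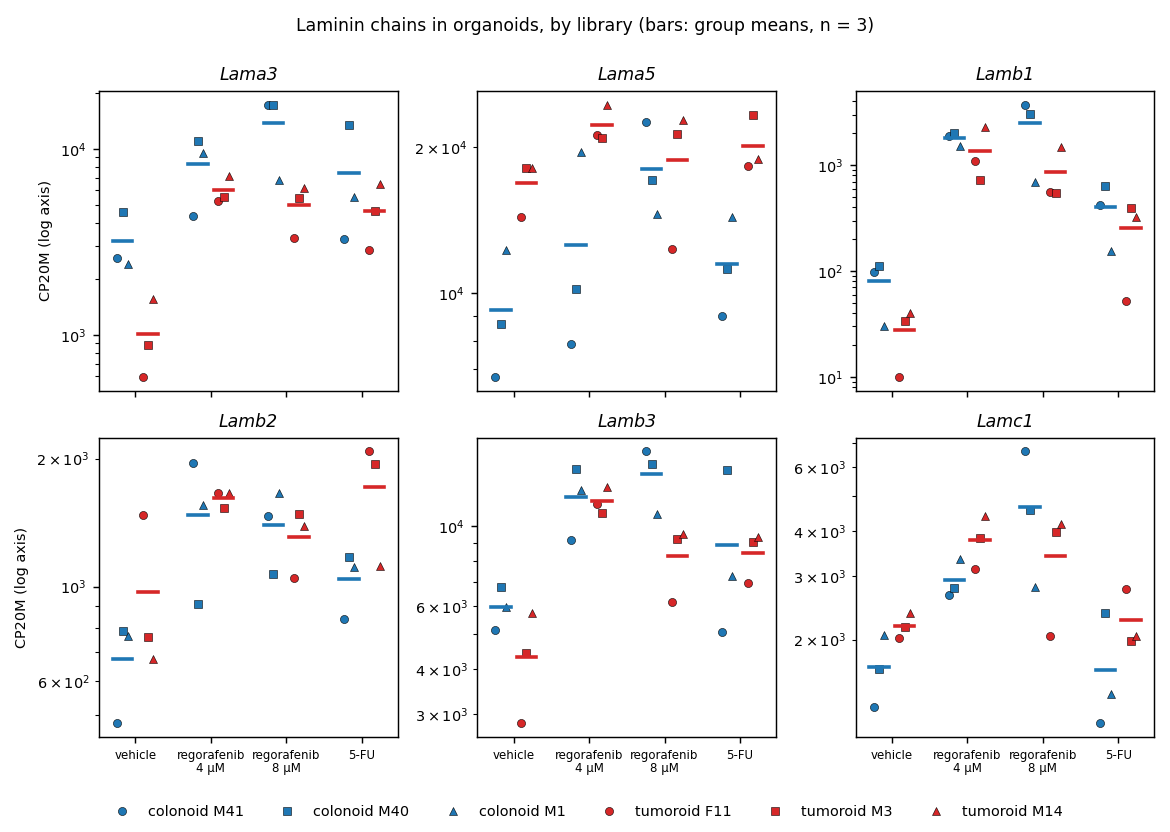
CP20M of 6 laminin chains (1 panel each, log y axis with its own range) in every organoid library by treatment (x axis); blue points are colonoid and red points tumoroid lines (symbols), bars are means of 3 lines. Lamb1 lies at 10 to 111 CP20M in vehicle and 549 to 3717 CP20M with regorafenib, without overlap.

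Within 1 genotype, Lamb1 was the only tested chain that passed the same threshold. Its log2 fold change was 4.38 ± 0.52 in colonoids (adjusted p = 0.000175, limma), where 1.46% of genes passed, and 4.42 ± 0.52 in tumoroids (adjusted p = 0.000353, limma), where 0.203% passed. Lama3 had 1.69 ± 0.38 in colonoids (adjusted p = 0.00833) and 2.49 ± 0.38 in tumoroids (adjusted p = 0.0018, limma). With the line as a block, which pairs the cultures of 1 mouse, Lama3 passed in tumoroids as well (adjusted p = 0.000535). Lamb1 lost its call in colonoids without line M41 (adjusted p = 0.0021) or M40 (0.00508), and in tumoroids without any 1 of its lines F11, M3 or M14 or without colonoid line M40 (0.00168 to 0.0147), its log2 fold change staying between 4.16 and 4.84 (limma).
The difference between genotypes in the response, tested as an interaction, passed for 0 of the 6 chains at an FDR of 0.05, a rate that 0.00883% of all genes (1 of 11320) met; 0 chains had an unadjusted p under 0.05, and edgeR called 0. For Lamb1 the tumoroid response was higher by 0.05 log2 units with a 95% interval of -1.51 to 1.60, and for Lama3 by 0.80 with an interval of -0.34 to 1.94. The width of these intervals leaves differences of either sign possible.

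The 8 µM dose was compared with 4 µM over both genotypes, and in that average no chain differed at an FDR of 0.05 with a change of at least 1.5-fold. That limit, used in all comparisons from here on, was passed by 0.451% of genes and 0 of the 6 tested chains; 0 had an unadjusted p under 0.05 in limma, and edgeR called 0. Lamb1 differed by -0.25 ± 0.42 log2 units, Lama3 by 0.21 ± 0.31 and Lamb3 by -0.16 ± 0.18 (SE). Lamb1 was higher at 8 µM than at 4 µM in 2 of 6 lines (M41 and M40). The comparison averages both genotypes, and dose was not tested within 1 genotype. Mean Lama3, Lama5, Lamb1, Lamb3 and Lamc1 were higher at 8 than at 4 µM in colonoids and lower in tumoroids. Mean Lamb2 was lower in both. In tumoroids Lamb3 was at 10861 to 12870 CP20M at 4 µM and 6144 to 9492 at 8 µM, without overlap. Its colonoid values, 9169 to 14403 and 10802 to 16167, overlapped.

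The cytotoxic drug 5-FU raised Lamb1 and Lama3 too, in the fit of all 24 organoid libraries, where 2.35% of 11562 genes passed and 2 of 6 tested chains did. Lamb1 with 5-FU was at 416, 640 and 155 CP20M in colonoid lines M41, M40 and M1 and 52, 390 and 325 CP20M in tumoroid lines F11, M3 and M14. These values were above vehicle in 6 of 6 lines and did not overlap with vehicle within a genotype (log2 fold change 2.12 ± 0.49, 4.36-fold, adjusted p = 0.0237, limma). Lama3 was at 3272, 13377 and 5529 CP20M in colonoids and 2876, 4660 and 6445 CP20M in tumoroids (1.62 ± 0.35, 3.07-fold, adjusted p = 0.0167, limma), higher in 6 of 6 lines and overlapping with vehicle in colonoids only.
Lamb2 (0.73 ± 0.22, adjusted p = 0.0768) and Lamb3 (0.73 ± 0.22, adjusted p = 0.0772) fell short, Lamb3 passing with the line as a block (adjusted p = 0.0131, limma). Lamc1 stood at -0.01 ± 0.22. Both calls depended on which lines were in the fit. Lamb1 lost its call without M41, M40, M1, M3 or M14 (adjusted p = 0.0522 to 0.18) and Lama3 without M1, M3 or M14 (0.0739 to 0.17). Without the shallow 4 µM library of M41, which enters this comparison only through the spread estimated over all libraries, 4 chains passed, Lamb2 and Lamb3 in addition.

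Against 5-FU, 8 µM regorafenib gave higher Lamb1 and Lamc1. Lamb1 was 2.15 ± 0.49 log2 units higher (4.45-fold, adjusted p = 0.00706, limma), in 6 of 6 lines. Lamc1 with 8 µM was at 6650, 4561 and 2796 CP20M in colonoid lines M41, M40 and M1 and 2051, 3961 and 4192 CP20M in tumoroid lines F11, M3 and M14. With 5-FU it was at 1173, 2368 and 1412 CP20M in those colonoids and 2769, 1987 and 2053 CP20M in those tumoroids, so that 5 of 6 lines were higher with regorafenib, F11 being the exception (1.00 ± 0.22, adjusted p = 0.00517, limma). In this comparison 8.78% of genes passed and 2 of 6 tested chains. Without tumoroid line M3 or M14 the Lamc1 call was lost (adjusted p = 0.0603 and 0.0674). The 5-FU and regorafenib comparisons with vehicle share their vehicle libraries, so their sizes are given side by side only.

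**Figure D3:**
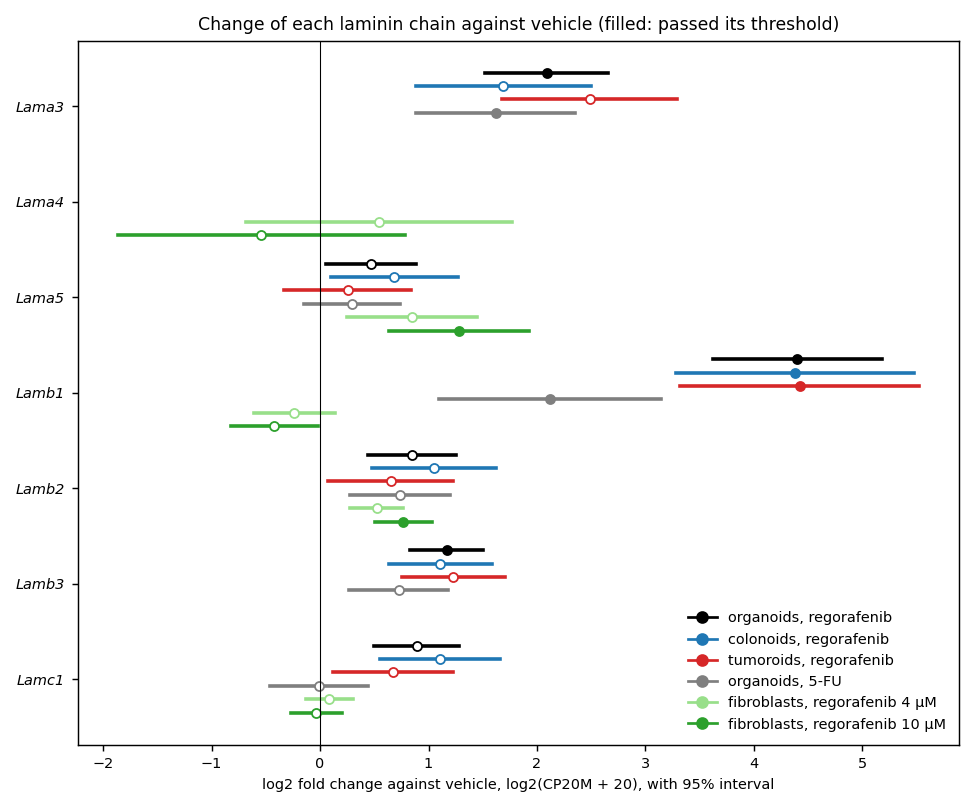
Log2 fold change against vehicle (x axis, log2(CP20M + 20), with 95% intervals as lines) of 7 laminin chains (y axis) for regorafenib in organoids over both genotypes, in colonoids and in tumoroids, for 5-FU in organoids, and for 4 and 10 µM regorafenib in fibroblasts. Filled points passed their comparison's threshold: Lamb1 lies at 4.401 over both genotypes in organoids and at -0.42 at 10 µM in fibroblasts.

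In fibroblasts, regorafenib went with more Lama5 and Lamb2. At 10 µM, 7.33% of 11032 genes passed and 2 of the 5 tested chains (Lama4, Lama5, Lamb1, Lamb2 and Lamc1), both upward; Lama1, Lama3 and Lamb3 were under the filter. Lamb2, a β chain of muscle, nerve and vessel basement membranes, was at 4095, 4763, 5153 and 6220 CP20M in vehicle in lines M3, M3(2), M1(2) and M11. It was at 6972, 7481, 6693 and 7630 CP20M at 4 µM in the same order, and at 8096, 9061 and 8476 CP20M at 10 µM in M3, M3(2) and M1(2). The 3 ranges did not overlap. At 10 µM the log2 fold change was 0.77 ± 0.13 (SE, 1.70-fold, adjusted p = 0.000903, limma); at 4 µM it was 0.52 ± 0.12 (adjusted p = 0.0304, limma), below the limit of 1.5-fold at 1.43-fold.
Lama5 was at 3553, 2673, 1860 and 3903 CP20M in vehicle, 7239, 5366, 3257 and 5750 CP20M at 4 µM and 8682, 6536 and 6115 CP20M at 10 µM, in the same order of lines. All lines were higher at each dose; 4 µM values overlapped with vehicle through line M1(2), and 10 µM values did not. The log2 fold change was 1.28 ± 0.31 at 10 µM (2.43-fold, adjusted p = 0.0104, limma) and 0.85 ± 0.28 at 4 µM (adjusted p = 0.173), where the line as a block gave the same size with an adjusted p of 0.000133. Without line M3 or M3(2), Lama5 did not pass at 10 µM (adjusted p = 0.0926 and 0.102), at log2 fold changes of 1.23 and 1.30 (limma).

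**Figure D4:**
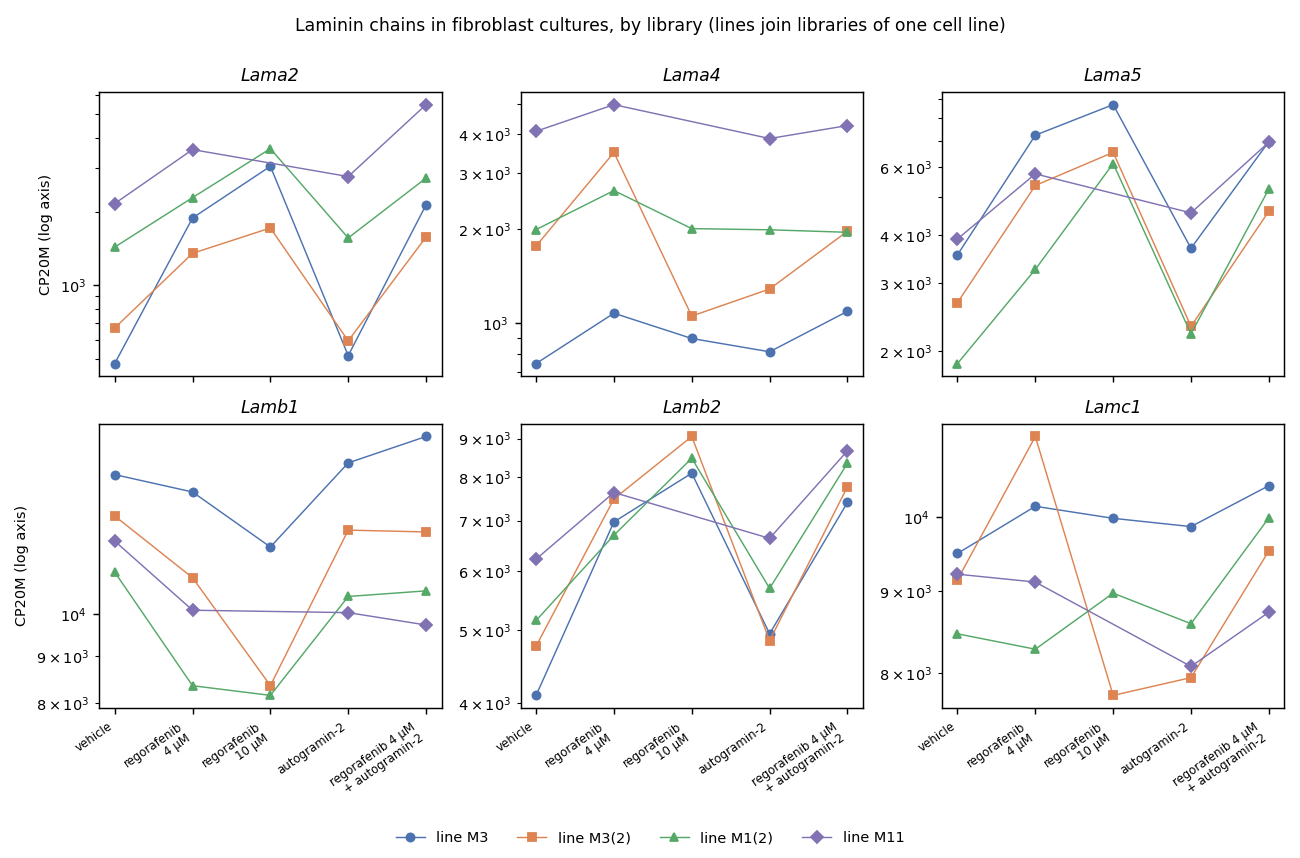
CP20M of 6 laminin chains (1 panel each, log y axis with its own range) in every fibroblast library by treatment (x axis); each line joins the libraries of 1 cell line. Lamb2 lies at 4095 to 6220 CP20M in vehicle and 8096 to 9061 CP20M at 10 µM regorafenib, while Lama4 keeps line M11 highest in each group that holds it.

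Lamb1, which rose with regorafenib in organoids, was not higher in any fibroblast line given regorafenib alone. It was at 14183, 12786, 11107 and 12006 CP20M in vehicle, 13578, 10951, 8353 and 10094 at 4 µM and 11828, 8355 and 8153 at 10 µM, lower in each line at each dose. The log2 fold changes of -0.24 ± 0.18 at 4 µM (adjusted p = 0.624) and -0.42 ± 0.19 at 10 µM (adjusted p = 0.161, limma) did not pass. With the line as a block they were -0.24 ± 0.070 (adjusted p = 0.022) and -0.47 ± 0.077 (adjusted p = 0.000121, limma). Both then met the FDR of 0.05 but stayed under the size limit of 1.5-fold. Organoid and fibroblast responses, from cultures that differed in days of treatment and in the higher dose, were not tested against each other. Lamc1, at 7752 to 11218 CP20M over all 19 libraries, changed by 0.09 ± 0.10 at 4 µM and -0.03 ± 0.11 at 10 µM, with a 95% interval of -0.27 to 0.20 at the higher dose.
In the β chain level per kb, Lamb1 held 60.3% ± 6.08 in vehicle, 47.4% ± 4.93 at 4 µM and 40.1% ± 6.16 at 10 µM, with Lamb2 holding almost all the rest. Of the α chains, Lama5 held 51.5% ± 16.6 in vehicle and 68.2% ± 9.51 at 10 µM, and Lama4 31.5% ± 11.6 and 12.03% ± 5.30. These vehicle and 4 µM shares are means of 4 lines. The 10 µM shares are means of 3, without M11, the line with the most Lama4 in vehicle.

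Lama4 varied widely between fibroblast lines. It was at 746, 1763, 1988 and 4082 CP20M in vehicle in lines M3, M3(2), M1(2) and M11. At 4 µM it was at 1078, 3496, 2645 and 4960 CP20M (log2 fold change 0.55 ± 0.58, adjusted p = 0.758, limma). At 10 µM it was at 896, 1056 and 2002 CP20M in M3, M3(2) and M1(2) (-0.54 ± 0.63, adjusted p = 0.644, limma). Line M11, the highest in vehicle, had no 10 µM library, so this value sets 3 lines against 4. Within lines, Lama4 was above vehicle at 10 µM in 2 of 3. The line as a block gave -0.18 ± 0.19 (adjusted p = 0.454, limma). In direct comparison of 10 with 4 µM, where 0.145% of genes passed, 0 of 5 chains did (0 in edgeR, 0 at an unadjusted p under 0.05); with the line as a block Lama4 was lower at 10 µM by -0.73 ± 0.19 and passed (adjusted p = 0.0132, limma). Beside Lama4, the 5 endothelial markers, of which 4 or 5 averaged 200 CP20M or more in each group and none was at 0 throughout a group, summed to 1009 to 9076 CP20M in vehicle, 1535 to 25983 at 4 µM and 1364 to 5755 at 10 µM, and the 3 glial markers to 581 to 11069, 810 to 11369 and 850 to 4328 CP20M. Their part in the Lama4 values was not tested.
Of the 4 smooth muscle markers, 3 averaged 200 CP20M or more in each group and none was at 0 throughout a group. They summed to 7570 to 23293 CP20M in vehicle, 18007 to 43507 at 4 µM and 30434 to 38725 at 10 µM, higher with regorafenib alone, as Lamb2 and Lama5 were. With 4 µM regorafenib and autogramin-2 together they summed to 12741 to 33218 CP20M. Against regorafenib alone, Lamb2 was there higher in 4 of 4 lines and Lama5 in 2 of 4. The part of these markers in the results was not tested. Lama2, the α chain of muscle basement membranes and not among the 8, was at 479 to 2155 CP20M in vehicle and 1713 to 3610 at 10 µM (1.40 ± 0.60, adjusted p = 0.141, limma), passing with the line as a block (adjusted p = 1.33e-05). Lama1 was at 130 to 204 CP20M in vehicle and 52 to 108 CP20M at 10 µM, lower in 3 of 3 lines, and was not tested.

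At 4 µM, 1.02% of genes passed and 0 of the 5 tested chains, with 2 at an unadjusted p under 0.05 (Lama5 and Lamb2) and 0 called by edgeR. With autogramin-2 alone, 0% of genes passed, and so did 0 of 5 chains (limma; 120 of all genes and 0 chains at an unadjusted p under 0.05, and 0 genes in edgeR); Lamb2 was at 4947, 4844, 5686 and 6629 CP20M and Lama5 at 3693, 2320, 2219 and 4559 CP20M in lines M3, M3(2), M1(2) and M11, overlapping with vehicle. Line by line, Lamb2 was above vehicle with autogramin-2 in 4 of 4 lines, by 0.13 ± 0.12 log2 units (SE, adjusted p = 1, and 0.746 with the line as a block, limma), and Lama5 in 3 of 4. With 4 µM regorafenib and autogramin-2 together, 1.66% of genes passed and 1 of 5 chains, Lamb2, at 7400, 7766, 8345 and 8672 CP20M in lines M3, M3(2), M1(2) and M11 (0.68 ± 0.12, adjusted p = 0.00457, limma). This call was lost without M3, M3(2) or M1(2) (adjusted p = 0.0771 to 0.136). Lama5 had 1.02 ± 0.28 (adjusted p = 0.0642), and passed with the line as a block (adjusted p = 2.13e-05, limma). Against regorafenib alone, the combination gave 0 of 5 chains called (0 at an unadjusted p under 0.05, 0 in edgeR), with 0.00906% of genes passing; Lamb2 was higher in the combination in 4 of 4 lines, by 0.16 ± 0.12 log2 units (SE, adjusted p = 0.941, and 0.202 with the line as a block, limma), with overlapping ranges.

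No laminin receptor or hemidesmosome gene of a related list passed the threshold with regorafenib in organoids, a threshold that 4.97% of all genes tested passed. For 9 tested genes, a count of 0 is near that share. Of 11 genes for receptors and hemidesmosome parts, 9 were tested with regorafenib over both genotypes and 0 passed (median log2 fold change 0.41); the smallest adjusted p values were those of Itgb4, the β4 integrin of hemidesmosomes (0.41 ± 0.11, adjusted p = 0.0135), Plec, the linker plectin (0.61 ± 0.19, adjusted p = 0.0262), and Itgb1, the common β1 integrin (0.62 ± 0.19, adjusted p = 0.0265, limma). Of 14 other basement membrane genes, 10 were tested, 4 rose and 0 fell (median 1.35), beside 2.82% of all genes tested that passed upward. These were collagen IV genes, namely Col4a1 (1.40 ± 0.19, adjusted p = 9.71e-05), Col4a2 (1.22 ± 0.19, adjusted p = 0.000326) and Col4a5 (1.63 ± 0.26, adjusted p = 0.000423, limma) and, named after its value was seen, Col4a3 (2.80 ± 0.46, adjusted p = 0.000514, limma).
In fibroblasts at 10 µM, 7.33% of all genes tested passed. Of 10 tested receptor and hemidesmosome genes 1 rose, Bcam, a receptor for the Lama5 product (1.27 ± 0.35, adjusted p = 0.0229, limma). Another 1 fell, the linker gene Plec (-0.86 ± 0.17, adjusted p = 0.00366, limma). Itgb1 had 0.41 ± 0.13 (adjusted p = 0.0425, limma), under the size limit. Of 12 tested basement membrane genes 2 rose, Ntn4, a netrin that binds laminin (1.47 ± 0.23, adjusted p = 0.000551), and Nid2 (1.99 ± 0.43, adjusted p = 0.0052), and 1 fell, Nid1 (-1.07 ± 0.25, adjusted p = 0.0098, limma); both nidogens link laminin to collagen IV. The Col4a1 and Col4a2 values of 0.14 ± 0.20 and 0.12 ± 0.18 did not pass in fibroblasts.

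Across the 24 organoid libraries, which share lines, treatments and scaling, Lama3 and Lamb3 followed each other most closely (Pearson r = 0.94 of log2(CP20M + 20), given as a description). Among all tested genes, the 3 nearest to Lama3 were Lamb3, Acvr1 (0.93) and Gm29200 (0.92), the last overlapping Lama3 on the opposite strand; the 2 nearest to Lamb3 were Lama3 and Acvr1 (0.94). Those nearest to Lamb1 were Apol7d (0.97), Fn1, the gene of the matrix protein fibronectin (0.96), and Fermt2, which encodes an integrin activator (0.95). Lama5 followed Lama3 only weakly (0.16). Across the 19 fibroblast libraries the genes nearest to Lamb2 were Adamts2, a procollagen peptidase (0.96), Svep1 (0.96) and Hr (0.95), and those nearest to Lama5 were Pkd1 (0.96), Ncoa1 (0.93) and Shprh (0.90). Lama5 and Lamb2 had r = 0.78 in these libraries, while Lamb1 and Lamb2 had r = -0.53.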

How the data were processed

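Bulk RNA sequencing of 24 organoid and 19 fibroblast libraries was used, grouped by the labels; 3 tumoroid libraries with 5-FU whose titles say colonoid were placed by genotype label and library name, and 1 fibroblast library by its library name. The authors trimmed, aligned and counted the reads (per the submitters' processing notes Trimmomatic 0.36, STAR 2.5.3a, HTSeq 0.9.1 and GRCm38) and deposited a signal per gene, CP20M, the count scaled to 20000000 per library and rounded up. Values share 1 step per library whatever the gene length, so they were not divided by length; levels per kb used GENCODE M21 exon lengths (52489 of 52636 genes matched). Whole reads, recovered from that step for at least 99.61% of values, gave the depths; counting error and variation between lines both enter the tests.

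Genes with at least 200 CP20M in 2 libraries were tested on log2(CP20M + 20) with limma 3.58.1 (trend, two-sided) in R 4.3.3, Benjamini-Hochberg adjusted over all genes tested. Organoid contrasts without 5-FU used 18 libraries, those with 5-FU 24, and fibroblast contrasts 19. The fits were also run on simulated counts with known changes. These counts held no effect of the line, so they do not test how the fits handle cultures of 1 mouse. Alternatives were edgeR 4.0.16 on recovered reads (quasi-likelihood, TMM), pseudocounts of 2 and 100, a filter of 20 CP20M, TMM rescaling, each line left out, the shallow library left out, and the line as a block. Cultures of 1 line come from the same mouse; after removal of group means, libraries of 1 line correlated at 0.43, 0.50 and 0.72 on average in the 3 fits, and those of different lines at -0.21, -0.25 and -0.23.

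The laminin chains, related lists and markers were chosen with earlier results of these data known. Genes were named if they were members, among the 3 related genes with the smallest adjusted p in a list, or among the 3 genes nearest in pattern to a member that passed a threshold. One further chain gene is not reported here, nor are shares that need it.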

Additional observations from a re-analysis of the deposited data

How the results depend on the processing

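Of 175 alternative counts of laminin chains passing a comparison, 144 were within 1.5 times the main count and 31 moved; of 990 alternative values of single chains, 915 kept direction and call, 27 lost and 18 gained a call, and 30 changed sign, all of them for differences that had not passed. Leaving out 1 line at a time gave 1 to 3 chains for regorafenib over both genotypes, 0 to 1 within colonoids and within tumoroids, 0 to 2 for 5-FU, 1 to 2 for 8 µM regorafenib against 5-FU, 0 to 1 for 4 µM and 1 to 2 for 10 µM in fibroblasts, and 0 to 1 for the combination. With the line as a block, 2 chains passed in tumoroids, 1 at 4 µM in fibroblasts, 2 for the combination and 1 for 10 against 4 µM, and the block changed no call of a chain not named with it in the report. TMM rescaling gave 2 chains in tumoroids, and a pseudocount of 100 gave 0 in tumoroids and 1 for 5-FU. Without the shallow 4 µM library of M41, 2 passed in tumoroids and 4 for 5-FU, and with the block in addition 3 in colonoids, 3 in tumoroids and 4 for 5-FU. The cause of these shifts was not tested. Over all genes, the block moved the calls from 23 to 95 in tumoroids, 165 to 268 in colonoids, 51 to 201 between doses, 272 to 584 for 5-FU, 113 to 796 and 809 to 1519 at 4 and 10 µM in fibroblasts, 183 to 771 for the combination, 1 to 158 for the combination against regorafenib and 16 to 664 between fibroblast doses. edgeR called 888 in place of 563 over both genotypes, 27 in place of 16 between genotypes, 53 in place of 23 in tumoroids, 95 in place of 51 between doses and 427 in place of 272 for 5-FU, and 0 in place of 1 for the interaction and for the combination against regorafenib. TMM moved the median change over the whole table by 0.108 (log2) in colonoids with regorafenib.

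Signs turned as follows (log2). For the difference between genotypes, Lamb3 was -0.022 with edgeR, and Lamb1 -0.43 with a pseudocount of 100, -0.068 with TMM and -0.094 without the M41 library under the block. Leaving out 1 line gave -0.22 to 0.47 for Lamb1, -0.77 to 0.00066 for Lamb2 and -0.047 to 0.26 for Lamb3. Between organoid doses, Lama3 was -0.025 without the M41 library under the block, and 1 line left out gave -0.11 to 0.50 for Lama3, -0.065 to 0.42 for Lama5 and -0.45 to 0.067 for Lamb1. Lamc1 with 5-FU was 0.0080 in edgeR and -0.15 to 0.11 with 1 line left out, and Lamb2 was -0.13 to 0.19 for 8 µM against 5-FU. In fibroblasts at 10 µM, Lamc1 was 0.023 with edgeR, 0.018 with TMM and -0.099 to 0.065 with 1 line left out. Leaving out 1 fibroblast line also gave -0.18 to 0.014 for Lama4 with autogramin-2, -0.14 to 0.0040 for Lamb1 with the combination, -0.0012 to 0.30 for Lama5 and -0.085 to 0.083 for Lamc1 in the combination against regorafenib alone, and -0.20 to 0.048 for Lamc1 between doses. Depth limits Lama1 and Lama4 in organoids and Lama3 and Lamb3 in fibroblasts, which rest on few reads.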
